A study of Mus musculus with 14 samples.

Results

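The matrix metalloproteinases (MMPs) and their tissue inhibitors (TIMPs) were examined in 4T1, a mouse mammary tumor cell line that metastasizes to the lung. The 10 genes taken were Mmp2, Mmp3, Mmp9, Mmp10, Mmp13, Mmp14, Mmp19, Timp1, Timp2 and Timp3, out of 19938 genes measured. They were chosen by name, with earlier results of these data known, and for each gene the probe set that maps to exactly 1 symbol was used. All 10 were on the array, with 1 such probe set per gene. Total RNA from 14 samples was hybridized to Affymetrix mouse gene arrays, and each value is a log2 intensity after robust multi-array averaging (RMA), so that a difference of 1 is a doubling. There were 3 samples with the empty over-expression vector (vector control), 3 with CNOT7 over-expression from a human FLAG-tagged cDNA, 2 with the hairpin sh74 against Cnot7, 3 with the hairpin sh75 against Cnot7 and 3 with the control hairpin shScramble. All were stably transduced 4T1 cells grown in DMEM with serum, the over-expression arms selected with blasticidin and the hairpin arms with puromycin. Cnot7 is a deadenylase of the CCR4-NOT complex, and the study asked which transcripts move with its level. The design text calls the replicates biological, but no label states that they came from separate cultures, and every p-value here rests on the variation among these 14 samples alone.

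MMPs are zinc-dependent endopeptidases that cut collagens, laminins and other proteins of the extracellular matrix, and most are secreted as inactive proenzymes. TIMPs bind active MMPs and block their catalytic site, and Timp2 also helps membrane-bound Mmp14 to activate the Mmp2 proenzyme. In carcinomas, these enzymes are known for remodelling matrix at invasion fronts, and both the tumor cells and the surrounding stroma can make them.

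The knockdown was visible in the targeted gene. Relative to shScramble, Cnot7 fell by 2.29 in sh75 (SE 0.26, limma adjusted p = 0.00911), and its difference in sh74 was -1.31 (SE 0.29, limma adjusted p = 0.279). In the over-expression arm the mouse Cnot7 probe set differed from vector control by 0.00 (SE 0.26), but it need not detect the human cDNA. The arrays also differed in epithelial genes within treatment groups. Esrp1, an epithelial splicing regulator, lay between 5.21 and 6.50 in 5 samples and between 9.73 and 11.01 in the other 9. The 5 samples with low Esrp1 were over-expression replicate 3, sh74 replicate 1, sh75 replicates 2 and 3, and shScramble replicate 3, with none in vector control. Each sample was therefore given a state score, the mean of a mesenchymal gene list minus the mean of an epithelial list after centering each gene, with none of the 10 genes in either list. The score ran from -1.09 to 1.37, and both extremes were sh74 samples. Over the samples, the mean of the epithelial list ran from 8.04 to 9.80 and that of the mesenchymal list from 7.35 to 8.04. Vim ran from 10.08 to 13.06, while Cdh1 stayed at or above 10.28, Krt8 at or above 11.13 and Cdh2 at or below 4.22. A high score therefore does not mean a full mesenchymal state. All 23 epithelial markers had a mean above the limit set by olfactory receptor probe sets (4.89, the 90th percentile of their means), and so had 14 of 17 mesenchymal markers (not Cdh2, Snai2 and Prrx1). Of the markers of other cell types, 4 of 8 immune genes were above it (Cd68, Cd14, Csf1r and Cd3e, but not Ptprc, Adgre1, Itgam and Ly6g), 2 of 4 endothelial genes (not Pecam1 and Tek) and 4 of 6 fibroblast genes (the collagens Col1a1, Col1a2 and Col3a1, and Pdgfrb, but not Dcn and Lum).

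Of the 10 genes, 9 lay above that olfactory limit in all 14 samples and Timp3 in 0 of 14. The limit is low, since the immune gene Cd3e, with a mean of 5.88, also passed it. Being above it is no proof of expression. Mmp2 (mean 5.63) and Mmp19 (mean 5.30) lay under the lowest array median of 6.31 on average. Their spread over the samples differed widely. Mmp3 spanned 5.13 log2 units from its lowest to its highest sample (35.1-fold), with a larger standard deviation than 99.8% of all probe sets tested. Mmp9 spanned 4.62 (24.6-fold), Mmp13 3.49, Mmp10 2.08 and Mmp19 1.95. Mmp14, Timp1 and Timp2 stayed within 1.13, and Mmp2 and Timp3 within 0.25. Most of this spread did not follow the treatment groups. The share of variance between the 5 groups was 73.5% for Mmp14 but 48.4% for Mmp2, 48.1% for Mmp19, 44.8% for Mmp3, 27.1% for Mmp9, 20% for Mmp13 and 6.26% for Timp1. With 5 small groups, a share falls between them without any treatment effect. By limma's F test over the 5 groups, the unadjusted p was 0.00387 for Mmp14 (adjusted p = 0.240), 0.0993 for Mmp19, 0.129 for Mmp3 and 0.324 for Mmp2. In bulk RNA, fewer cells making a transcript and less of it per cell cannot be told apart.

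**Figure D1:**
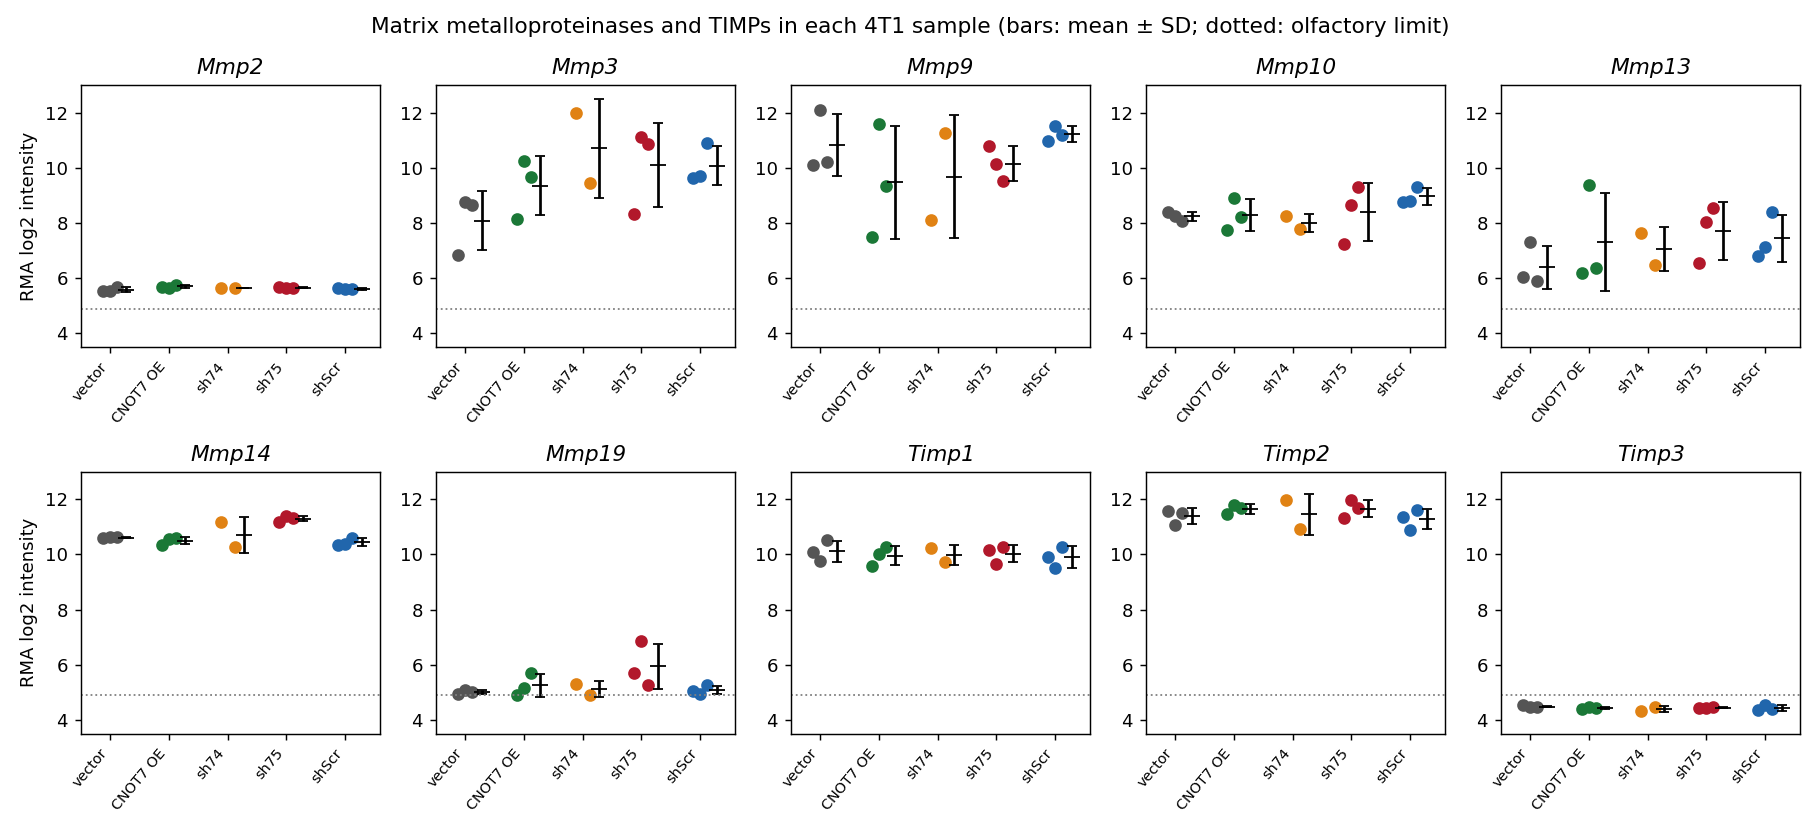
RMA log2 intensity (vertical axis) of the 10 genes in each sample, by treatment group; points are samples, bars the group mean ± SD and the dotted line the olfactory limit of 4.89. The 3 sh75 samples of Mmp14 lie above all other samples of that gene, while the Mmp3, Mmp9 and Mmp13 samples spread widely within groups.

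Mmp3 and Mmp10, the stromelysins, cut a broad range of matrix proteins and can activate other proenzymes, and Mmp13 is a collagenase that cuts fibrillar collagen. The 3 genes lie in 1 cluster on mouse chromosome 9, where RefSeq lists Mmp13, Mmp12, Mmp1b, Mmp3, Mmp1a, Mmp10, Mmp8, Mmp27, Mmp20 and Mmp7 in that order with no other protein-coding gene between them. Their promoters are shown because AP-1 is the best-known regulator of this cluster and because Mmp3, Mmp13 and Mmp10 all varied widely between samples. RefSeq promoter windows (GRCm38.p6, 250 bases before to 50 after the annotated start) were found for 7 of the 10 genes, with none for Mmp2, Mmp9 and Mmp19. The AP-1 motif TGAGTCA, searched on both strands (reverse complement TGACTCA), was present in these 3 promoters only among the 7, and in 5.2% of all 32851 windows. Capitals mark it in the 30 bases below, written 5′ to 3′ on the plus strand, on which all 3 genes lie. They come from chr9:7445765-7445794 for Mmp3, chr9:7502268-7502297 for Mmp10 and chr9:7272468-7272497 for Mmp13.
Mmp3: ggaagcaattaTGAGTCAgttttcgggtga
Mmp10: tagcacccatgTGAGTCAtgcttagtgacc
Mmp13: ccccaaagtggTGACTCAtcactatcatgc
The first motif base lay at -46, -63 and -35 from the start, respectively. The TATA box letters TATAAA were likewise present in these 3 promoters of the 7, and in 13.6% of all windows. The letters AGGAAG (PEA3) occurred in 35.4% of all windows and in Mmp3, Mmp13, Mmp14, Timp1 and Timp3. The GC box GGGCGG occurred in 35.7% of all windows and in Mmp14, Timp1, Timp2 and Timp3. A match is a description of the letters and not evidence of binding.

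Mmp3 measured 6.84, 8.75 and 8.64 in vector control, 8.15, 10.24 and 9.66 in over-expression, 11.97 and 9.43 in sh74, 8.34, 11.12 and 10.85 in sh75, and 9.64, 9.69 and 10.88 in shScramble. Group means ran in the order sh74 (10.70 ± 1.80, SD, n = 2), sh75 (10.10 ± 1.53, n = 3), shScramble (10.07 ± 0.70, n = 3), over-expression (9.35 ± 1.08, n = 3) and vector control (8.08 ± 1.07, n = 3), and neighbours in this order overlapped. The vector control and shScramble samples did not overlap, and the vector control minus shScramble difference of -1.99 (SE 0.90) did not pass the adjusted test (limma adjusted p = 1.0). Mmp10 measured 8.40, 8.24 and 8.08 in vector control, 7.74, 8.90 and 8.21 in over-expression, 8.23 and 7.76 in sh74, 7.24, 8.65 and 9.31 in sh75, and 8.76, 8.80 and 9.32 in shScramble. Both sh74 samples lay below the 3 shScramble samples, with a mean difference of -0.96 (SE 0.50, limma adjusted p = 0.727). Mmp13 measured 6.02, 7.29 and 5.87 in vector control, 6.2, 9.36 and 6.35 in over-expression, 7.62 and 6.48 in sh74, 6.54, 8.04 and 8.54 in sh75, and 6.80, 7.12 and 8.40 in shScramble. Its highest value was over-expression replicate 2, 3.02 above the next sample of that group, and every group overlapped every other.

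**Figure D2:**
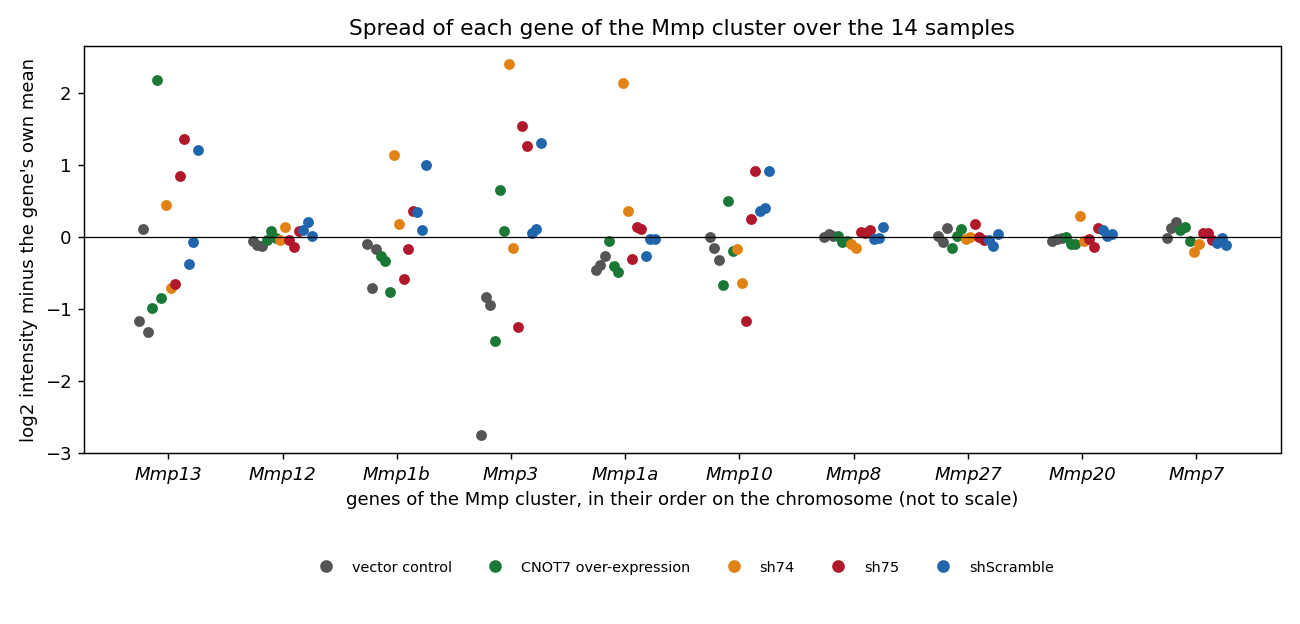
Log2 intensity of each gene of the chromosome 9 cluster minus that gene's own mean (vertical axis) in the 14 samples, with genes in chromosomal order (horizontal axis, not to scale) and colors for the treatment groups. Mmp13, Mmp1b, Mmp3, Mmp1a and Mmp10 spread by 1.90 to 5.13 log2 units, and Mmp12, Mmp8, Mmp27, Mmp20 and Mmp7 by 0.30 to 0.43.

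Mmp9 and Mmp2 are the gelatinases, which cut denatured collagen and the type IV collagen of basement membranes. Mmp9 measured 10.11, 12.11 and 10.22 in vector control, 7.48, 11.57 and 9.35 in over-expression, 8.11 and 11.25 in sh74, 10.79, 10.12 and 9.53 in sh75, and 10.96, 11.52 and 11.18 in shScramble. Group means ran in the order shScramble (11.22 ± 0.28, n = 3), vector control (10.81 ± 1.12, n = 3), sh75 (10.14 ± 0.63, n = 3), sh74 (9.68 ± 2.22, n = 2) and over-expression (9.47 ± 2.05, n = 3), and neighbours in this order overlapped. The 3 sh75 samples lay below the 3 shScramble samples, and the mean difference of -1.08 (SE 1.01, limma adjusted p = 0.833) was about as large as its standard error. It was -0.45 without the 5 samples of low Esrp1, which left only replicate 1 of sh75. Mmp2 lay between 5.51 and 5.76 in all 14 samples, under the lowest array median of 6.31. Its over-expression minus vector difference of 0.12 (SE 0.06, limma adjusted p = 1.0) is thus a small difference between dim signals.

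Mmp14 is a membrane-anchored MMP that acts at the cell surface, and Mmp19 is a secreted enzyme that cuts basement membrane proteins. Mmp14 measured 10.59, 10.62 and 10.64 in vector control, 10.36, 10.55 and 10.59 in over-expression, 11.17 and 10.25 in sh74, 11.19, 11.38 and 11.32 in sh75, and 10.35, 10.37 and 10.60 in shScramble. All 3 sh75 samples lay above the other 11, although sh74 replicate 1 came within 0.02 of the lowest of them. Group means ran in the order sh75 (11.30 ± 0.10, n = 3), sh74 (10.71 ± 0.65, n = 2), vector control (10.61 ± 0.03, n = 3), over-expression (10.50 ± 0.13, n = 3) and shScramble (10.44 ± 0.14, n = 3), and only the first pair of neighbours did not overlap. The sh75 minus shScramble difference was 0.86 (SE 0.18, 95% confidence interval 0.46 to 1.25, 1.81-fold), and it did not pass the adjustment over all probe sets (limma adjusted p = 0.187). The sh74 pair lay 0.91 apart. Leaving out sh74 replicate 1 or sh74 replicate 2 kept the difference at 0.86 by construction, since neither sample enters it. Mmp14 passed the adjusted test in both fits. Either fit only drops the spread of that pair from the error, so the 2 fits are no separate support. The sh75 minus shScramble difference was 0.83 without the 5 samples of low Esrp1, which left 1 sh75 sample. With the state score as a covariate it was 0.72 (SE 0.11, limma adjusted p = 0.0529).

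Mmp19 measured 4.96, 5.1 and 5.0 in vector control, 4.91, 5.16 and 5.71 in over-expression, 5.32 and 4.90 in sh74, 5.69, 6.85 and 5.28 in sh75, and 5.05, 4.96 and 5.26 in shScramble. The 3 sh75 samples lay above the 3 shScramble samples, by 0.85 on average (SE 0.33, limma adjusted p = 0.524), but without sh75 replicate 2 the difference was 0.40, and the lowest sh75 sample exceeded the highest shScramble sample by only 0.02. Most of its values lay just above the olfactory limit, and sh75 replicate 2 stood highest.

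The inhibitors varied less. Timp1, a secreted inhibitor of most MMPs, lay between 9.50 and 10.51, and its group means lay between 9.90 (shScramble) and 10.11 (vector control). Timp2 measured 11.59, 11.07 and 11.51 in vector control, 11.47, 11.80 and 11.69 in over-expression, 11.98 and 10.94 in sh74, 11.33, 11.96 and 11.70 in sh75, and 11.37, 10.88 and 11.61 in shScramble. The sh74 samples held both its highest value and nearly its lowest, and all groups overlapped. Timp3, which binds to the matrix and also inhibits ADAM proteases, lay between 4.33 and 4.54, under the olfactory limit throughout, so that its small over-expression minus vector difference of -0.06 (SE 0.06), although without overlap between the samples, is a difference between dim signals.

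Across the comparisons of groups, 0 of the 10 genes passed limma's test at an adjusted p under 0.05. Among all 21789 probe sets, the share called was 0% for over-expression against vector control, 0.00918% for sh74, 0.0918% for sh75 and 0.0184% for both hairpins against shScramble, 0.174% for sh74 against sh75, 0% for vector control against shScramble, 0% for the over-expression change minus the knockdown change, and 0.0597% for any difference between the 5 groups. The hairpin comparisons and the vector comparison share the shScramble samples, and the over-expression change minus the knockdown change uses all 14 samples. At an unadjusted p under 0.05, the over-expression comparison held 1 of the 10 genes (Mmp2, against 2.58% of all probe sets), sh74 held 0 (7.33%), sh75 held 2 (Mmp14 and Mmp19, 8.26%) and both hairpins held 1 (Mmp14, 7.30%). The same count was 2 for sh74 against sh75 (Mmp14 and Mmp19, 8.93%), 1 for vector control against shScramble (Mmp3, 3.70%), 1 for over-expression minus knockdown (Mmp14, 3.49%) and 1 for the 5 groups (Mmp14, 9.24%).

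Samples without overlap were likewise few. They were found for 1 of the 10 genes with over-expression (Timp3, against 7.72% of all probe sets), 1 with sh74 (Mmp10, 22.0%), 3 with sh75 (Mmp9, Mmp14 and Mmp19, 13.5%) and 0 with both hairpins together (3.93%). For sh74 against sh75 the count was 1 (Mmp14, 22.5%) and for vector control against shScramble 2 (Mmp3 and Mmp10, 9.74%). The median change of the 10 genes was 0.08 with over-expression, 0.02 with sh74 and 0.08 with sh75, beside medians of 0.01, 0.00 and -0.00 over all probe sets. For sh74 minus sh75 it was -0.31, with 1 of the 10 genes higher and 9 lower in sh74. Over all probe sets the median was 0.00 and 50.8% were higher. Of the 10, only Mmp14 and Mmp19 had an unadjusted limma p under 0.05 there. That comparison rests on 2 sh74 samples, which hold the extreme state scores, and genes that vary together are not replicates. In a two-sided exact permutation test of the 5 hairpin samples against the 3 shScramble samples, no member reached 0.05. The smallest p was 0.0893 for Mmp2, with 0.143 for both Mmp9 and Mmp14, where 0.0179 is the smallest this design allows.

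**Figure D3:**
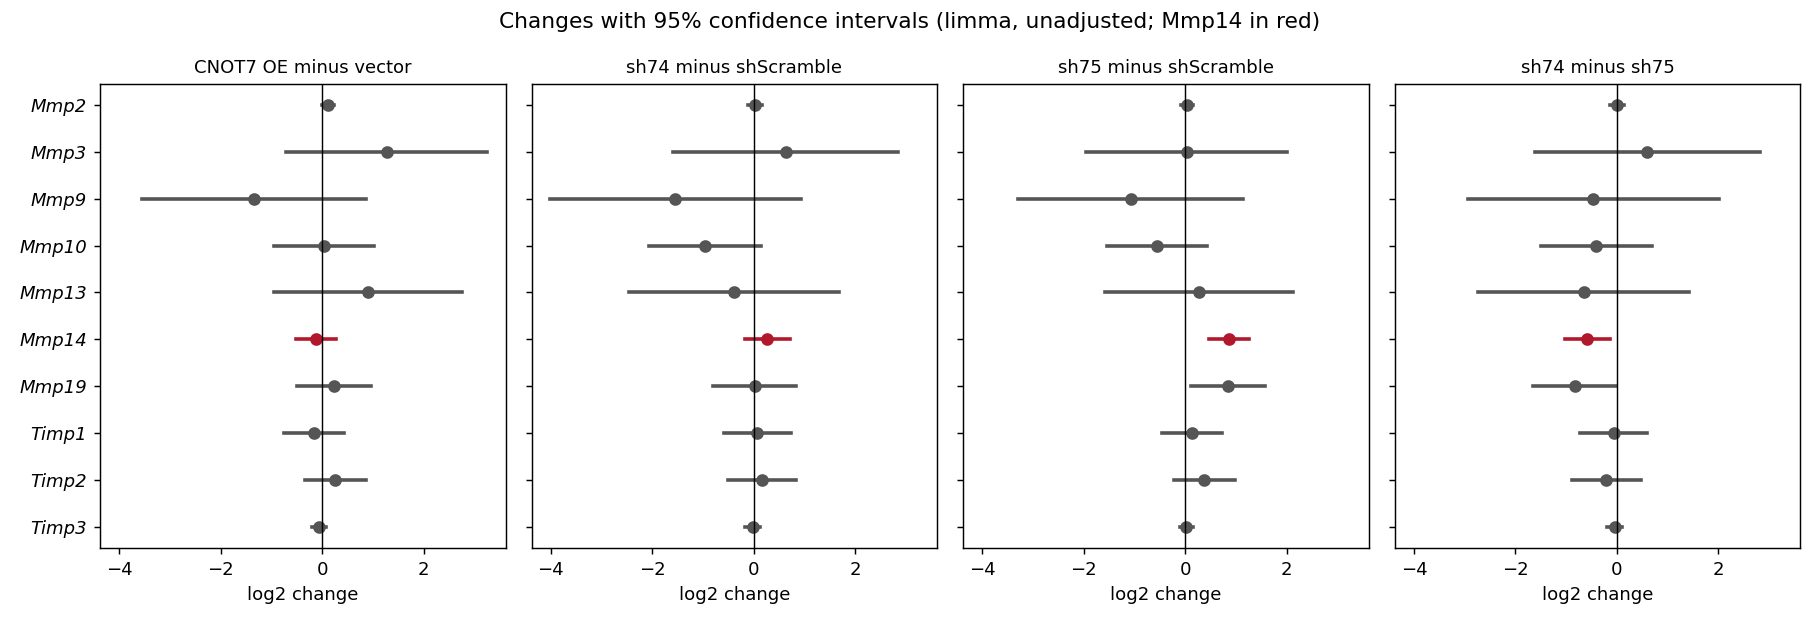
Log2 change (horizontal axis) of each gene in 4 comparisons; points are limma estimates and lines their unadjusted 95% confidence intervals, with Mmp14 in red. The intervals of Mmp3, Mmp9 and Mmp13 are the widest, and Mmp14 in sh75 lies at 0.86 with an interval of 0.46 to 1.25.

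The hairpins did not give the same Mmp14 value. Its sh74 minus sh75 difference was -0.59 (SE 0.20, limma adjusted p = 0.392), with the sh74 minus shScramble difference at 0.27 (SE 0.20). That last value was -0.19 without sh74 replicate 1, -0.11 without the 5 samples of low Esrp1 and 0.73 without sh74 replicate 2. The mean over both hairpins was 0.56 above shScramble (SE 0.16, limma adjusted p = 0.533). These values turned on the sh74 pair. Without sh74 replicate 1, the difference between hairpins was -1.04, and without sh74 replicate 2 the mean over both hairpins was 0.79 above shScramble. Each of these fits left 1 sh74 sample. Subtracting the knockdown change from the over-expression change gave -0.68 for Mmp14 (SE 0.24, limma adjusted p = 1.0).

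Timp2, Mmp14 and Mmp3 were higher in samples with a higher state score. In a model with the 5 groups and the state score, 3 of the 10 genes passed limma's test, where 5.25% of all probe sets did, and 5 had an unadjusted p under 0.05, where 18.4% did. The 10 genes and the lists of the score were chosen with earlier results of these data known, which limits what these counts can show. Timp2 rose by 0.33 per unit of score (SE 0.06, limma adjusted p = 0.0131), Mmp14 by 0.20 (SE 0.04, limma adjusted p = 0.0254) and Mmp3 by 0.97 (SE 0.24, limma adjusted p = 0.0417). In the 2 sh74 samples, which hold the extreme scores, Timp2 was 11.98 at the highest score and 10.94 at the lowest, and Mmp3 was 11.97 and 9.43. Slopes that did not pass were 0.38 for Mmp10, 0.24 for Timp1, 0.50 for Mmp13, 0.23 for Mmp19 and -0.44 for Mmp9 (limma adjusted p between 0.159 and 0.672). The slopes of Mmp2 and Timp3 were 0.01 and -0.03. The median slope of the 10 genes was 0.23, beside -0.00 over all probe sets.

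Without the 2 sh74 samples, 0 of the 10 genes passed, and the share of all probe sets was 1.85%. The slopes were 0.28 for Timp2 (adjusted p = 0.0851), 0.12 for Mmp14 (adjusted p = 0.0687) and 0.94 for Mmp3 (adjusted p = 0.171, all by limma). Leaving out only 1 of them is the same fit, as a lone sample of a group adds nothing to a slope. Without shScramble replicate 3, where 2.23% of all probe sets passed, Timp2 alone of the 10 did, and the slopes were 0.22 for Mmp14 (adjusted p = 0.0567) and 1.04 for Mmp3 (adjusted p = 0.0938, both by limma). Without the 5 samples of low Esrp1, where 0% of all probe sets passed, the slopes were 0.40 for Timp2, 0.09 for Mmp14 and 0.79 for Mmp3. The call of Mmp3 was lost in 16 of 23 alternatives, including the leaving out of any sh74, sh75 or shScramble sample, while its slope stayed between 0.81 and 1.1 whichever sample was left out. The fits without 1 or both sh74 samples were counted separately there, although they are the same fit.

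**Figure D4:**
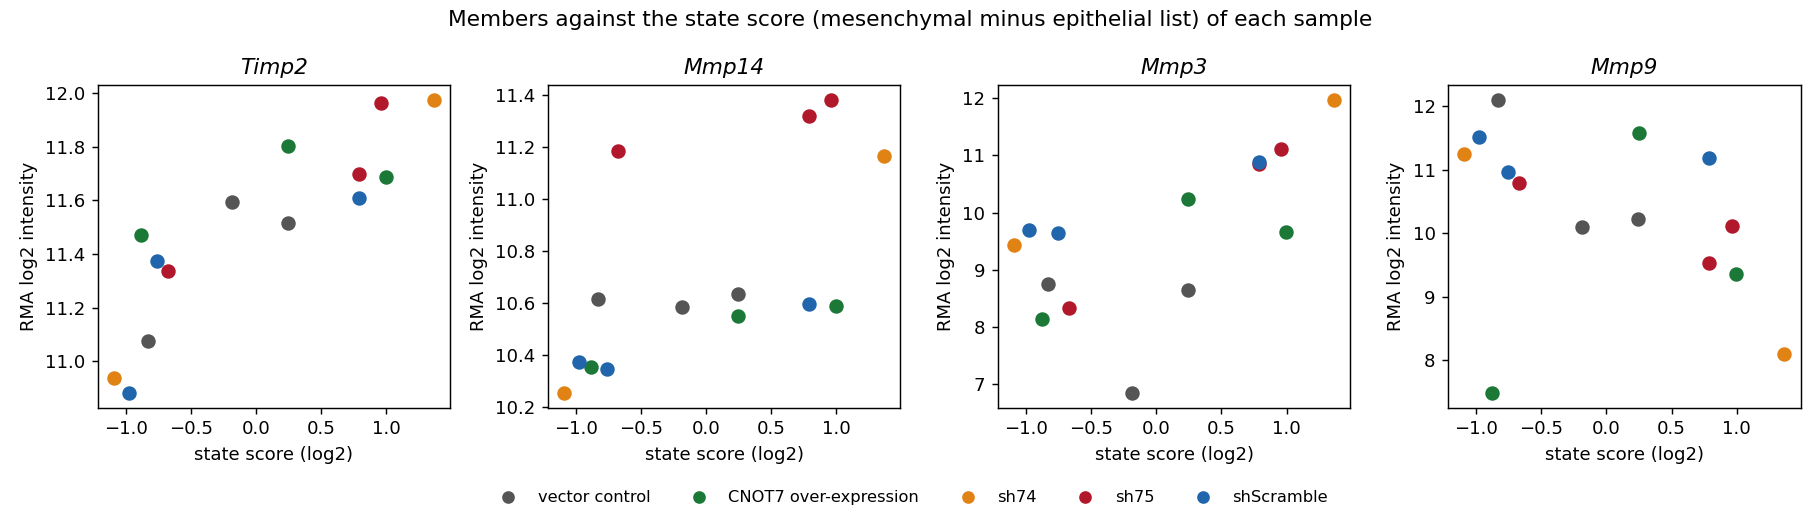
RMA log2 intensity (vertical axes, scaled per gene) of Timp2, Mmp14, Mmp3 and Mmp9 against the state score of each sample (horizontal axis, mean mesenchymal minus mean epithelial log2 value), colored by treatment group. Over the 14 samples Pearson r with the score is 0.87 for Timp2, the sh75 samples of Mmp14 lie above the others at every score, and r for Mmp9 is -0.38.

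Over the 14 samples, which share 1 cell line and the treatment groups, correlations were computed between the 10 genes. Among the 3 of the chromosome 9 cluster, Pearson r was 0.72 between Mmp3 and Mmp13, 0.70 between Mmp10 and Mmp13 and 0.53 between Mmp3 and Mmp10. After subtracting group means the same pairs gave 0.73, 0.80 and 0.74. Values this high were not particular to the cluster. Mmp14 and Timp2, which act together on the Mmp2 proenzyme, had r = 0.60, and 0.81 within groups. Mmp3 and Mmp14 had r = 0.44, and 0.74 within groups, and Mmp14 and Mmp19 had 0.70, and 0.43 within groups. Mmp9 had r = -0.09 to Mmp3, 0.23 to Mmp10 and -0.52 to Timp2. These are descriptions over 14 arrays with no test.

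**Figure D5:**
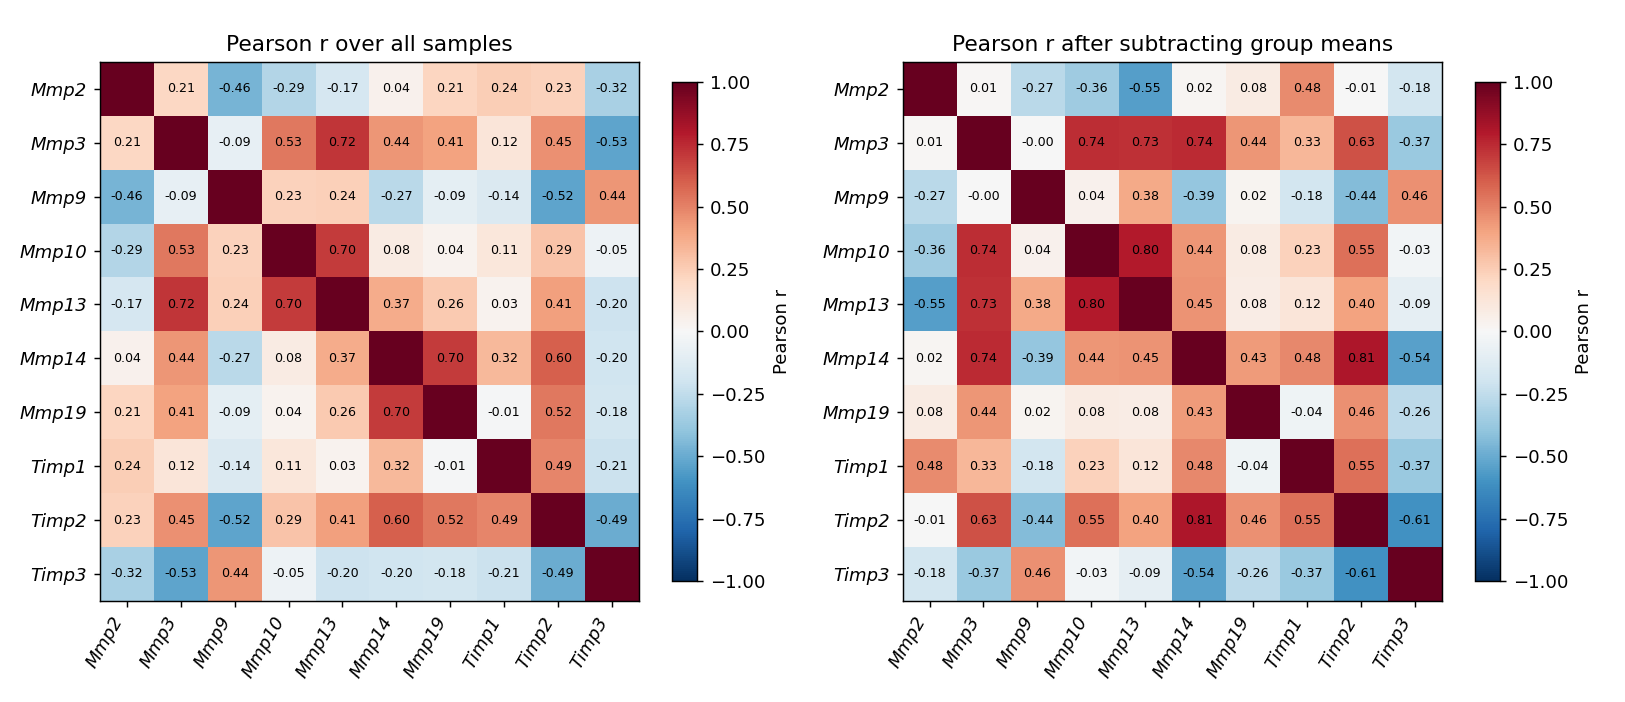
Pearson r between each pair of the 10 genes over the 14 samples (left) and after subtracting the mean of each treatment group (right), with color from blue (negative) to red (positive). The pairs among Mmp3, Mmp10 and Mmp13 have values from 0.53 to 0.72 on the left and from 0.73 to 0.80 on the right. Pairs outside that cluster are as high on the right, with 0.81 for Mmp14 and Timp2 and 0.74 for Mmp3 and Mmp14.

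Genes most like each variable member were picked by Pearson r over the 14 samples, among genes with a mean of at least 6. For Mmp3 they were Niban2 (r = 0.94), Map3k6 (0.93) and Deptor (0.90). For Mmp9 they were Rdh10 (0.91), Eml2 (0.88) and Adck5 (0.85). Mmp10 was most like Cep76 (0.86), Pgs1 (0.85) and Ptpn2 (0.82), and Mmp13 most like Hmgxb3 (0.88), Col5a3 (0.86) and Ctdp1 (0.86). For Mmp19 they were Gstm1 (0.92), Mgp (0.91) and Dmp1 (0.91).

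The rest of the pathway gave 0 calls in the comparisons of groups. There at most 0.174% of all probe sets were called, so a count of 0 says little about these genes. Of 16 other MMP genes, 15 were measured and 10 had a mean above the olfactory limit, and 0 passed limma's test in any comparison. Mmp1a, a collagenase gene of the cluster, was above that limit in 4 of 14 samples, among them both sh74 samples (5.22 and 6.99), whereas its 3 shScramble samples lay below it (limma adjusted p = 0.445 for sh74). The sh74 minus shScramble difference was 1.36 (SE 0.38). It was 0.47 without sh74 replicate 1 and 2.25 without sh74 replicate 2, which left the sample at 6.99. Of 22 alternatives, it passed in 1 only, the fit without sh74 replicate 2. That fit rests on a single sh74 sample and drops the spread of the pair from the error. Among 20 measured genes for activators, other inhibitors and docking proteins, 0 passed in the comparisons of groups. Furin, a proprotein convertase that activates Mmp14, was closest, at 10.69 ± 0.03 (n = 3) in sh75 against 10.28 ± 0.13 (n = 3) in shScramble (difference 0.42, SE 0.07, limma adjusted p = 0.0554). Without shScramble replicate 1 that difference was 0.48 and passed (limma adjusted p = 0.0458). It did not pass in the other 23 of 24 alternatives.

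With the state score, 4 of these 20 genes passed limma's test, where 5.25% of all probe sets did, 3 of them with a rise and 1 with a fall. Lrp1, an endocytic receptor that clears MMPs and TIMPs, rose by 1.04 per unit of score (limma adjusted p = 0.00683), as did the integrin subunits Itgav by 0.14 (0.0196) and Itgb3 by 0.90 (0.0229). Sdc1, an epithelial proteoglycan, fell by 0.44 (limma adjusted p = 0.0132). Of 11 genes for ADAM and ADAMTS proteases, 0 passed in the comparisons of groups, and with the score Adam19 rose by 0.85 (adjusted p = 0.00148), Adam10 rose by 0.23 (adjusted p = 0.00903) and Adam12 fell by 0.84 (adjusted p = 0.0121, all by limma). Without either sh74 sample, the calls of Lrp1 and Adam19 were kept, and Sdc1, Itgav, Itgb3, Adam10 and Adam12 had limma adjusted p from 0.0549 to 0.125. Without the 5 samples of low Esrp1, where no probe set of the array passed, their limma adjusted p ran from 0.507 to 0.982.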

How the data were processed

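Total RNA was hybridized to Affymetrix Mouse Gene ST arrays, which the authors, per the labels, summarized with RMA from oligo (versions not given in the sources used here), which corrects background, quantile normalizes and summarizes probes. The deposited log2 values were used as they were. Of 35556 probe sets, 21789 paired with exactly 1 symbol (19938 genes) and were tested, 1621 paired with several and 12146 with none. Array medians were 6.31 to 6.38, and the number of arrays limits the precision. A single limma model (limma 3.58.1, R 4.3.3, lmFit and eBayes) held the 14 samples in 5 groups, with 9 residual degrees of freedom. Tests were two-sided, with Benjamini-Hochberg adjustment over the 21789 probe sets and a call at an adjusted p under 0.05. The fit was tested on simulated data. The 10 genes and all gene lists were chosen with earlier results of these data known. Members were named with an unadjusted p under 0.05 or samples without overlap. Genes most like a member needed a mean of at least 6, and related-list genes were named by the smallest p. Promoter letters came from RefSeq windows (GRCm38.p6). Alternatives were other eBayes settings, probe set filters, renormalization, the compared groups alone, the methods' t-test, the score as a covariate, the replicate block and leaving out each sample.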

Additional observations from a re-analysis of the deposited data

How the results depend on the processing

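Of 825 recomputed values, 750 were counted as unchanged. For a change this means the same direction and side of the threshold, and for a count of members called an equal or nearly equal count. Many of the changes were far from the threshold to begin with, so keeping their side is a weak demand. Of 18 member changes followed, 17 kept their direction under every alternative run. The exception was Mmp14 in sh74, at -0.19 without sh74 replicate 1 and -0.11 without the 5 samples of low Esrp1, against 0.73 without sh74 replicate 2. Leaving out 1 sample at a time with both sh74 samples kept, 0 members were called in the comparisons of groups. The share of all probe sets called was then 0% to 0.252%. For the state score, 1 to 3 members were called, where 2.23% to 6.52% of all probe sets passed. Leaving out an sh74 sample left only 1 in that group. Mmp14 then passed in some comparisons of groups, but such a fit drops the spread of the sh74 pair from the error. The Mmp14 differences of those fits are given above. Without the samples of highest and lowest score, which are the 2 sh74 samples, 0 members were called with the score, beside 1.85% of all probe sets. The slopes without the 5 samples of low Esrp1, an alternative chosen after seeing the data, are given above. Without sh75 replicate 2, Timp1 was called with the score (0.29, limma adjusted p = 0.0332), where 3.38% of all probe sets passed. The number in the sample titles was also used as a replicate block, which could be fitted for sh75 against shScramble alone with 5 residual degrees of freedom. The differences were then 0.78 for Mmp14 (limma adjusted p = 0.540), -1.31 for Mmp9 and 0.76 for Mmp19. With it, 0 members were called, beside 0.00918% of all probe sets. The samples share only a number, so the block is no pairing. Each member has 1 probe set, so a choice of the dimmest probe set gave no other value, and for over-expression minus knockdown the compared groups are all 5.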
